A study of Mus musculus with 8 samples.

Results

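Mixed_Endothelial is one of 17 cell type labels that the authors gave to single cells dissected from the mouse PVN, the hypothalamic paraventricular nucleus, whose neurons drive the release of stress hormones. The label was read from the cell type column of the deposited table and holds 351 of 35672 cells. The same 351 cells form 1 of the 33 finer clusters, which holds no cell of another type. The nearest labels by name are Endothelial (3215 cells), Pericytes (1432 cells) and Vascular (401 cells).

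Cells came from male and female C57BL/6 mice and were profiled by droplet sequencing on a 10x Genomics Chromium chip. The 8 libraries are 1 per combination of sex, cohort and exposure. The baseline cohort was 10 weeks old and pairs unstressed control mice with mice that had 15 min of acute restraint stress (ARS). The CMS cohort was 11 weeks old and pairs unstressed controls with mice that had both chronic mild stress (CMS) for 21 days and ARS. Tissue was taken 5 h after the acute stress. The titles of the CMS cohort's control libraries name CMS, but the labels give their condition as unstressed. The number of animals behind each library is not stated, and a p-value here speaks only of how far these 8 libraries scatter.

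Brain endothelial cells line the capillaries and, joined by tight junctions that contain claudin-5 (encoded by Cldn5), form the blood-brain barrier. Pericytes sit on the outer face of the same capillaries, within a shared basement membrane, and are therefore often hard to separate from endothelial cells during dissociation. In droplet sequencing, a droplet that receives more than 1 cell gives a doublet, a single barcode with the RNA of both cells, and doublet scores rank barcodes by how much they resemble such mixtures. Gene expression was not analysed here, so Cldn5 and other markers could not be used to check the label, and the sources used here do not say on what basis the authors called these cells mixed. Depth and scores were computed by the authors from the same RNA that the cells were clustered on.

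The libraries held 3523 to 5777 cells and 9924892 to 15760435 UMIs (unique molecular identifiers, counts of captured RNA molecules). The mean doublet score over all cells of a library was 1.29 to 1.47. A barcode sequence found in 2 or more libraries belonged to 4.07% of all cells and to 20 Mixed_Endothelial cells (5.70%), and in none of these 20 (0) was the partner also a Mixed_Endothelial cell.

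Mixed_Endothelial cells were deep. Their median was 5110 UMIs and 2418 genes per cell, against 2138 UMIs and 1230 genes in Endothelial, 1501.5 and 931 in Pericytes, and 2877 and 1394 in Vascular cells. Only the labels COP (6282 UMIs) and AVP (6141 UMIs) had a higher median with all libraries pooled. Within libraries Mixed_Endothelial ranked 2 or 3 of 17 in 6 of them and 5 of 17 in the female and male CMS with ARS libraries. The quartiles of the Mixed_Endothelial cells were 3915 and 6648.5 UMIs, and the whole range was 1303 to 10553. No cell of any label had more than 3499 genes, and Mixed_Endothelial cells with 6000 UMIs or more had a median of 3001.5 genes. Whether deeper cells were removed before deposit is not stated.

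By library, the Mixed_Endothelial median was 5105 UMIs in female baseline control, 4551.5 in female baseline ARS, 5491 in male baseline control and 5632 in male baseline ARS cells. In the CMS cohort it was 5644.5 in female control, 4485 in female CMS with ARS, 6008.5 in male control and 4451 in male CMS with ARS cells. Endothelial medians ran from 1845 to 2755 UMIs, so the ranges of the 2 types did not overlap over the 8 libraries. Within libraries the Mixed_Endothelial median was 2.04 to 3.06 times the Endothelial median (mean log2 difference 1.26 ± 0.18, SD, n = 8; exact two-sided sign-flip permutation test, p = 0.00781, adjusted p = 0.0141). It was 3.43 times the Pericyte median (log2 1.78 ± 0.15) and 1.81 times the Vascular median (log2 0.85 ± 0.15), with the same exact p in each. Detected genes gave ratios of 1.93, 2.56 and 1.73 against Endothelial, Pericytes and Vascular, each higher in 8 of 8 libraries (exact sign-flip adjusted p = 0.0141). Here and in the comparisons of these types that follow, p-values were adjusted over 18 comparisons, and 0.00781 is the smallest p that 8 libraries allow.

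The Endothelial label itself is made of 3 clusters of unlike depth. Endothelial_1 (1505 cells) had a median of 1499 UMIs, Endothelial_3 (715 cells) 2678 and Endothelial_2 (995 cells) 3973. Mixed_Endothelial was deeper than Endothelial_2, the deepest of them, in 8 of 8 libraries, by 1.30-fold in UMIs (log2 0.38 ± 0.15, n = 8, exact sign-flip adjusted p = 0.0141 over 18 cluster comparisons) and 1.25-fold in genes (exact adjusted p = 0.0141). For scale, the Endothelial median was added to the median of each of the 16 labels other than Mixed_Endothelial, its own included. The Mixed_Endothelial median was above that sum for 8 of the 16. This count rests on the median of the whole Endothelial label (2138 UMIs). Sums that start from Endothelial_2 (3973) would all be higher and those from Endothelial_1 (1499) lower, and neither was computed. It exceeded Endothelial plus Pericytes (3639.5 UMIs), Endothelial plus Astrocytes (3420.5) and Endothelial plus Endothelial (4276) in 8 of 8 libraries, and Endothelial plus Vascular (5015) in 4 of 8. For Endothelial plus Oligodendrocytes (5603) it was above the sum in 1 of 8.

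**Figure D1:**
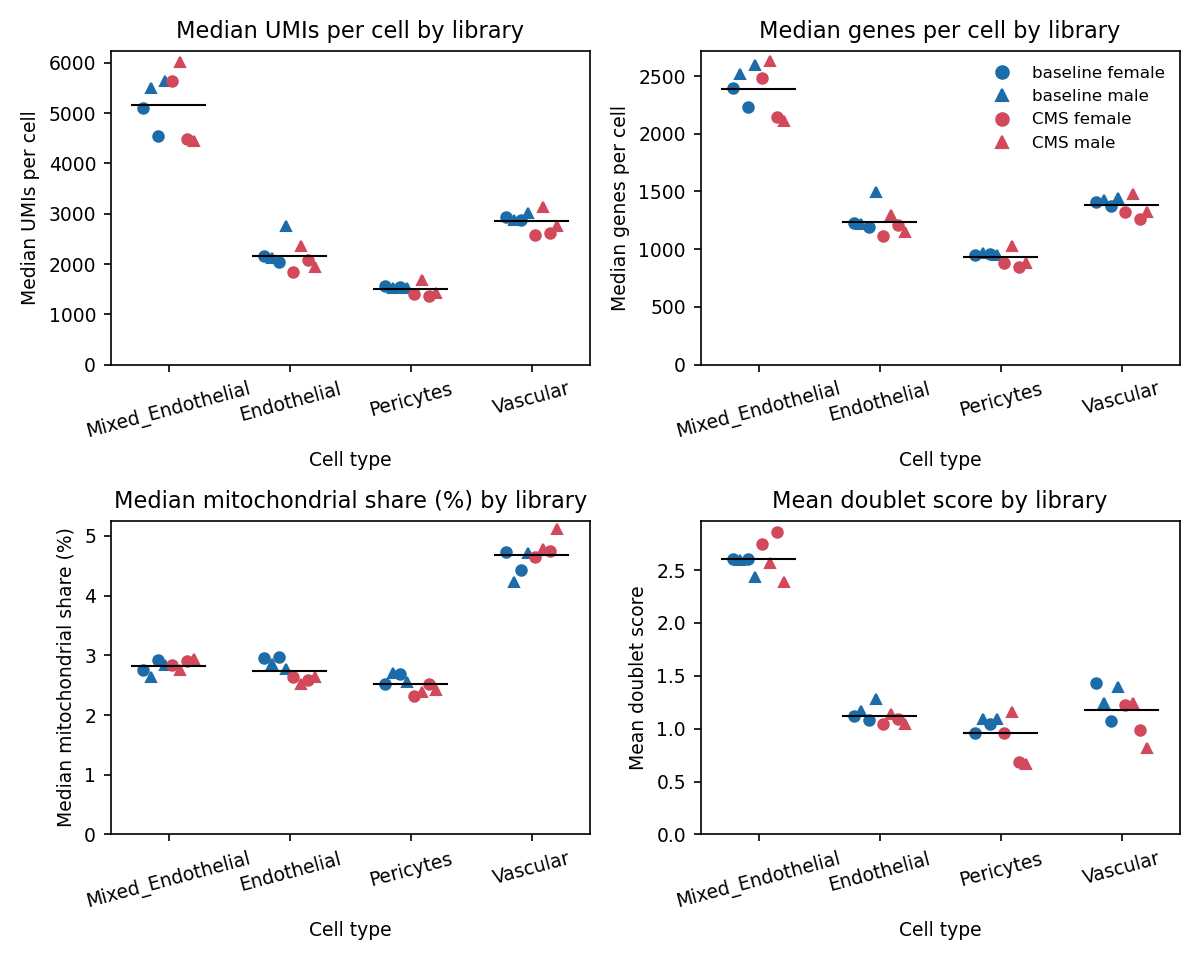
Library values of 4 cell properties (vertical axes: median UMIs per cell, median genes per cell, median mitochondrial share in percent, mean doublet score) for 4 cell types (horizontal axes). Each point is 1 library, coloured by cohort and shaped by sex, and the line is the mean of 8 libraries. Mixed_Endothelial lies above the other types in UMIs, genes and doublet score in each library, and near Endothelial in mitochondrial share.

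Mixed_Endothelial had the highest mean doublet score of the 17 labels. Its mean score was 2.59 over all its cells, ahead of the labels COP (1.98), GABA (1.84) and Glut (1.83), and it ranked 1 of 17 in each of the 8 libraries. No other type reached its mean. Medians over all cells lay closer, at 2.48 in Mixed_Endothelial, 2.39 in COP and 2.24 in Astrocytes. In COP and Astrocytes 25.2% and 30.8% of cells had a score of 0, which lowers their means. Endothelial cells had a mean of 1.12, Vascular cells 1.22 and Pericytes 0.953.

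The library means of Mixed_Endothelial were 2.61 in female baseline control, 2.61 in female baseline ARS, 2.60 in male baseline control and 2.44 in male baseline ARS cells. In the CMS cohort they were 2.75 and 2.86 in female control and female CMS with ARS cells, and 2.57 and 2.39 in the matching male libraries. Endothelial library means ran from 1.04 to 1.28, well below all of these. The difference was 1.48 ± 0.19 (SD, n = 8) against Endothelial, 1.64 ± 0.26 against Pericytes and 1.42 ± 0.26 against Vascular, each with an exact sign-flip adjusted p of 0.0141 and higher in 8 of 8 libraries. Against Endothelial_2 it was 1.12 ± 0.15 (n = 8, exact sign-flip adjusted p = 0.0141).

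The score has no stated unit and its deposited values end just below 4, so the shape of its spread says more than its size. A score of exactly 0 was given to 10 Mixed_Endothelial cells (2.85%), the lowest share of the 17 types, against 34.2% of Endothelial, 41.1% of Pericytes and 24.7% of Vascular cells. Apart from those 10, the lowest Mixed_Endothelial score was 1.69. Scores from 2 to below 2.5 were held by 159 cells (45.3%), from 2.5 to below 3 by 80 (22.8%), from 3 to below 3.5 by 71 (20.2%) and from 3.5 upward by 23 (6.55%). The highest 10% of scores over all cells started at 2.86, and 33.3% of Mixed_Endothelial cells reached it, against 3.20% of Endothelial, 4.47% of Pericytes and 5.49% of Vascular cells. The labels COP (21.7%), Astrocytes (20.2%) and Tanycytes (17.9%) were nearer to it. The cells without a score above 0 came from 6 libraries and had a median of 3581.5 UMIs.

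**Figure D2:**
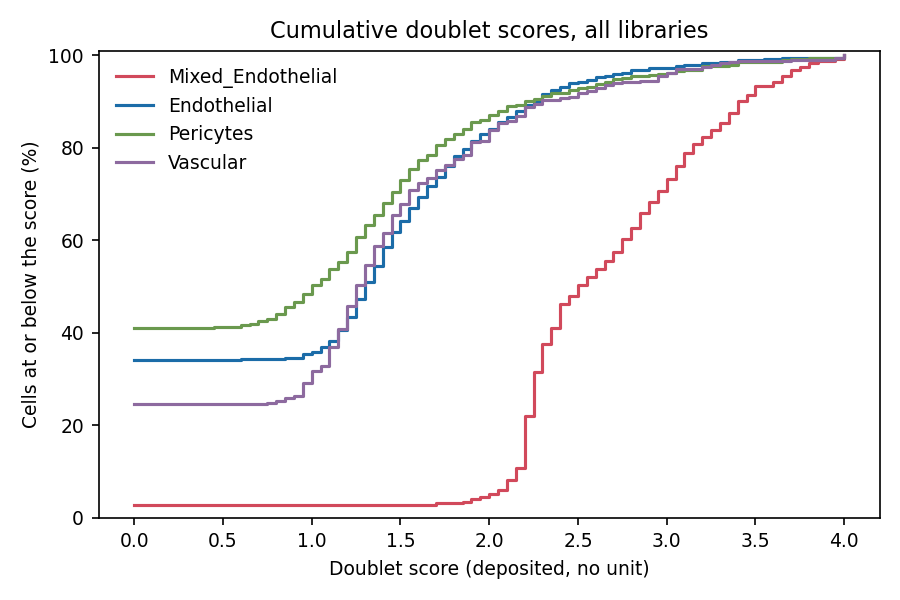
Cumulative share of cells (vertical axis, percent) at or below a doublet score (horizontal axis, deposited score without a unit) for 4 cell types, with all libraries pooled. Mixed_Endothelial starts at 2.85% and rises from a score of about 2, where the other 3 types have passed most of their cells.

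Since scores can move with depth, each Mixed_Endothelial cell was set beside the Endothelial cells of its own library whose UMIs lay within 20% of its own. All 351 cells had a match, with a median of 53 Endothelial cells each. The matched Endothelial cells had a mean score of 1.68 ± 0.031 (SD, n = 8 libraries), and Mixed_Endothelial 2.60 ± 0.15. At matched depth the difference was 0.926 ± 0.15 and ran from 0.709 in male CMS with ARS to 1.20 in female CMS with ARS cells (exact sign-flip permutation test, n = 8, adjusted p = 0.0195 over 5 measures). The score was thus higher at like depth in 8 of 8 libraries, though by less than without matching. In male CMS with ARS, 1 of the 15 Mixed_Endothelial cells had a score of 0, and their median score was 2.58 beside a mean of 2.39. In male CMS control, 1 of the 14 cells also had a score of 0, and the matched difference was 0.935. In female CMS with ARS and female CMS control none (0) had a score of 0, with matched differences of 1.20 and 1.01.

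Genes per cell were also higher at matched depth, by 1.06-fold (log2 0.086 ± 0.0068, n = 8, exact sign-flip adjusted p = 0.0195), and the log2 difference was 0.076 to 0.099 in every library. The size of that excess moved with the window: the log2 difference was 0.056 with UMIs within 10% and 0.208 within 40% (exact sign-flip adjusted p = 0.0195 in each). Matching was not complete, with a mean of 5386 UMIs in Mixed_Endothelial and 5181 in the matched Endothelial cells, and the part of this remaining depth in the gene excess was not tested. The S and G2/M scores and the mitochondrial share did not pass at matched depth (exact sign-flip adjusted p = 0.312, 0.508 and 0.555, n = 8), but without the female CMS control library the S score was lower in Mixed_Endothelial (-0.0077, exact adjusted p = 0.0260). In pooled depth classes the Endothelial mean score rose from 1.44 at 2000 to below 3000 UMIs to 1.88 at 6000 UMIs or more. The Mixed_Endothelial mean was 1.86 (4 cells) at 1000 to below 2000 UMIs and 2.65 (17 cells) at 2000 to below 3000, classes too thinly filled to read, and went from 2.77 (73 cells) at 3000 to below 4000 UMIs to 2.51 (122 cells) at 6000 or more. Across cells, the Spearman correlation of UMIs and score was 0.62 (Pearson 0.52) in 3215 Endothelial cells and -0.22 (Pearson -0.056) in 351 Mixed_Endothelial cells. These cells share libraries, and UMIs enter the counts behind both measures, so these values are a description.

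**Figure D3:**
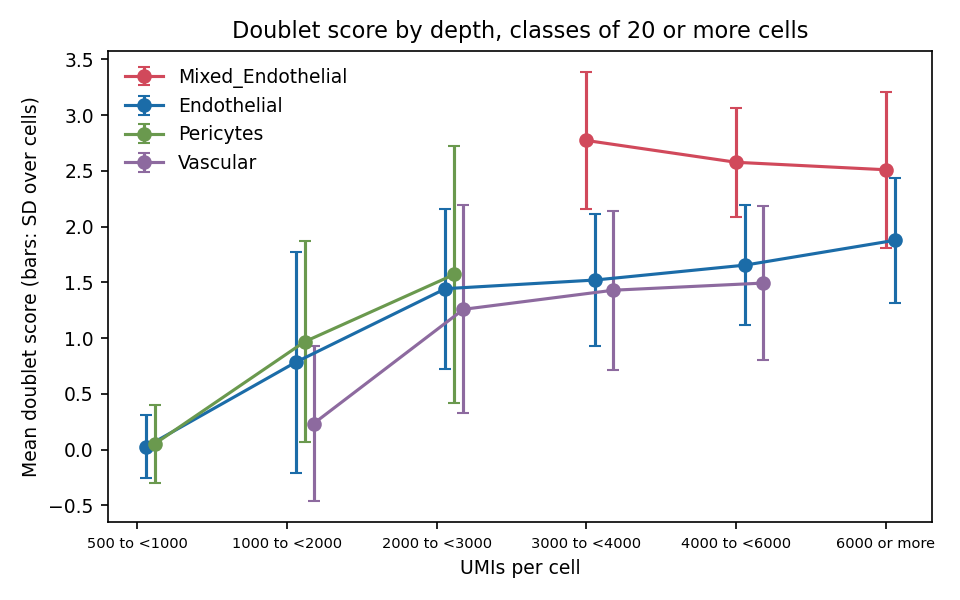
Mean doublet score (vertical axis; bars are SD over cells) in classes of UMIs per cell (horizontal axis) for 4 cell types, with all libraries pooled and classes under 20 cells left out. In the classes from 3000 UMIs upward Mixed_Endothelial lies at 2.51 to 2.77 and Endothelial at 1.52 to 1.88.

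In mitochondrial share, Mixed_Endothelial cells were below Vascular cells and slightly above Pericytes, and no difference from Endothelial as a whole was called. The median share of UMIs from mitochondrial genes was 2.78% in Mixed_Endothelial, 2.75% in Endothelial, 2.53% in Pericytes and 4.62% in Vascular cells. Library medians of Mixed_Endothelial ran from 2.63% to 2.94%, and its mean over libraries was 1.85 ± 0.22 percentage points below Vascular, lower in 8 of 8 libraries (exact sign-flip adjusted p = 0.0141). Against Endothelial the difference was 0.086 ± 0.22 percentage points (n = 8, exact p = 0.273, adjusted p = 0.347), with a higher value in 5 of 8 libraries. Against Endothelial_3 alone it was 0.464 ± 0.11 points, higher in 8 of 8 (exact sign-flip adjusted p = 0.0141). Against Pericytes it was 0.31 ± 0.19 points (higher in 7 of 8, exact sign-flip adjusted p = 0.0234), a call that was lost with library means in place of medians (0.031 points, exact adjusted p = 0.875).

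The cell cycle scores summarise genes of the S and G2/M phases of dividing cells. The mean S score was 0.010 in Mixed_Endothelial and 0.010 in Endothelial libraries, and the mean G2/M score was -0.0054 and -0.0044. The differences were 0.000087 ± 0.011 for S (exact sign-flip adjusted p = 0.977) and -0.0010 ± 0.0069 for G2/M (exact adjusted p = 0.861), both over 8 libraries. The highest score of any Mixed_Endothelial cell was 0.126 for S and 0.103 for G2/M. In Pericytes the highest were 0.575 and 1.26, in Endothelial 0.261 and 0.185, in Vascular 0.241 and 0.179, and in the label OPC 0.821 and 1.61. In smaller labels the highest were 0.096 and 0.121 (COP, 115 cells) and 0.109 and 0.089 (Meningeal, 131 cells). A maximum tends to rise with the number of cells, so these values are a description. Against Vascular cells the S score was higher in 7 of 8 libraries (0.013 ± 0.013, exact sign-flip adjusted p = 0.0234; 0.0511 with library medians). For G2/M against Vascular the exact adjusted p was 0.0541 (0.012 ± 0.011), and it passed without the male CMS control library (0.015, exact adjusted p = 0.0234). Against Endothelial_2 alone the G2/M score was lower (-0.0069 ± 0.0078, n = 8, exact sign-flip adjusted p = 0.0256).

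Whether the cells were equally frequent in all libraries was asked next. They made up a larger share of cells in each baseline library than in any CMS library. The share was 1.30% (72 cells, exact 95% Clopper-Pearson interval 1.01 to 1.63) in female baseline control and 1.25% (72 cells, 0.976 to 1.57) in female baseline ARS mice. In male mice of that cohort it was 1.84% (68 cells, 1.43 to 2.33) without and 1.64% (63 cells, 1.27 to 2.10) with restraint. In the CMS cohort it was 0.486% (22 cells, 0.305 to 0.735) in female control and 0.502% (25 cells, 0.325 to 0.740) in female CMS with ARS mice. The male values of the CMS cohort were 0.370% (14 cells, 0.203 to 0.620) and 0.426% (15 cells, 0.238 to 0.701). The intervals cover counting error only, and none from the baseline cohort overlaps one from the CMS cohort.

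**Figure D4:**
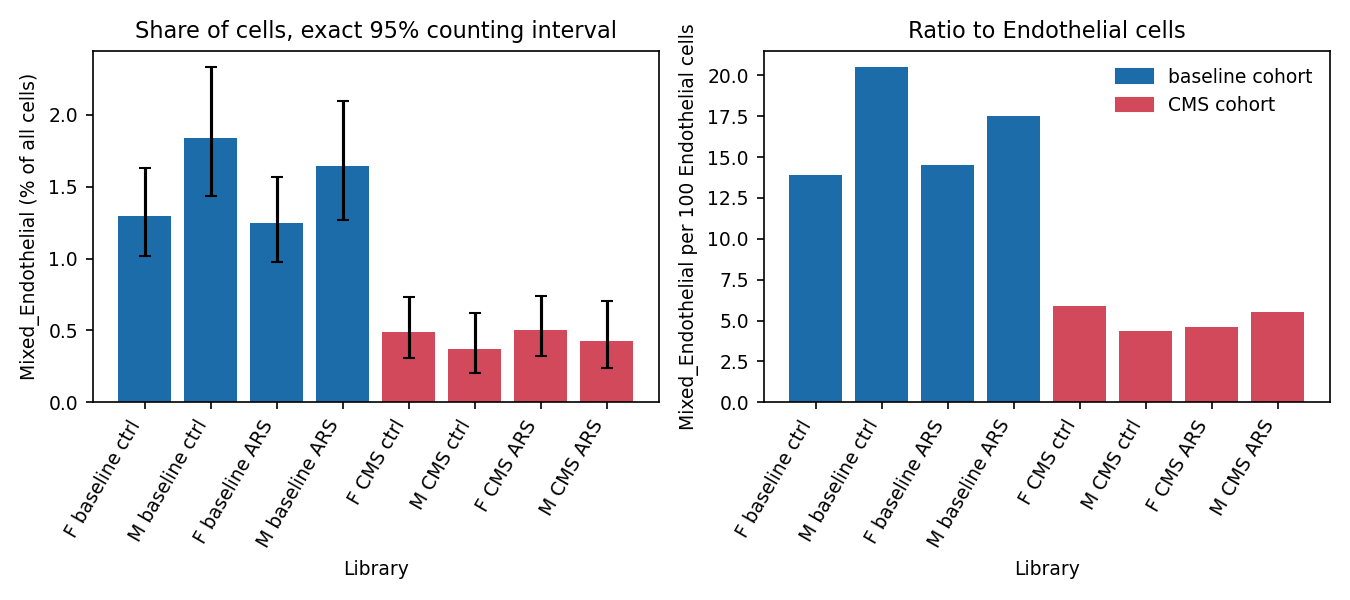
Left, share of Mixed_Endothelial among all cells (vertical axis, percent, with exact 95% counting intervals) in each of 8 libraries (horizontal axis). Right, Mixed_Endothelial cells per 100 Endothelial cells in the same libraries. The 4 baseline libraries lie at 1.25% to 1.84% and at 13.9 to 20.5 per 100, the 4 CMS libraries at 0.370% to 0.502% and at 4.38 to 5.90 per 100.

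The ratio to Endothelial cells followed the same split. There were 13.9 and 14.5 Mixed_Endothelial cells per 100 Endothelial cells in female baseline control and ARS libraries and 20.5 and 17.5 in the male ones. In the CMS cohort there were 5.90 and 4.60 in the female and 4.38 and 5.49 in the male libraries, control first. The cohorts did not overlap. In an edgeR fit of the 16 other types with the number of Endothelial cells as library size, the ratio was 3.20-fold lower in the CMS cohort (95% interval of the CMS over baseline fold 0.224 to 0.434; log2 fold -1.68, SE 0.20, edgeR adjusted p = 0.00138), and 12.5% of types were called. An exact two-sided permutation test of the log2 ratio, 4 against 4 libraries, gave p = 0.0286, the smallest that it allows. That test ignores the matching of libraries on sex and exposure. An exact sign-flip test over the 4 matched pairs gave p = 0.125, the smallest that 4 pairs allow. In the fit of shares the log2 fold was -1.72 (SE 0.28, edgeR adjusted p = 9.79e-07), with 17.6% of 17 types called.

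The Endothelial label itself showed no such split: its share of cells was 8.59% to 9.40% at baseline and 7.75% to 10.9% in the CMS cohort (log2 fold -0.042, SE 0.23, edgeR adjusted p = 0.855). With both labels added up, the log2 fold was -0.19 (SE 0.23, edgeR adjusted p = 0.534, with 12.5% of 16 types called). The label Vascular was also lower in the CMS cohort (log2 fold of the share -0.95, SE 0.27, edgeR adjusted p = 0.00443), with 0.596% to 1.08% of cells in its libraries against 1.23% or more in each baseline library. Per Vascular cell, the Mixed_Endothelial number had a log2 fold of -0.77 (SE 0.33, edgeR adjusted p = 0.0580), which did not pass the threshold. Per Pericyte it did pass. With each of the 3 Endothelial clusters as the denominator in turn it passed too.

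In each of the 4 pairs matched on sex and exposure the CMS share was lower. Among controls, which had no stress in either cohort by their labels, it was 2.67-fold lower in female and 4.97-fold lower in male mice. Among stressed mice it was 2.48-fold lower in female and 3.86-fold lower in male mice. The cohorts differ in age, and 2 versions of Cell Ranger are listed without the libraries each was used for, so cohort, age and possibly software version cannot be told apart here. Properties of whole libraries overlapped between the cohorts. The highest 10% of all scores held 8.04% to 11.1% of all cells at baseline and 7.24% to 11.5% in the CMS cohort (exact permutation p = 0.886, adjusted p = 0.886 over 5 measures), and the number of cells was 3692 to 5777 and 3523 to 4981 (exact p = 0.429, adjusted p = 0.714). Median UMIs of all cells were 2098 to 2565 and 1845 to 2221 (exact p = 0.114, adjusted p = 0.429). Endothelial cells with a score at or above the lower quartile of Mixed_Endothelial (2.22) were 8.33% to 13.6% of the Endothelial label at baseline and 7.33% to 10.5% in the CMS cohort (exact p = 0.171, adjusted p = 0.429). The part of depth and cell number in the lower share was not tested.

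**Figure D5:**
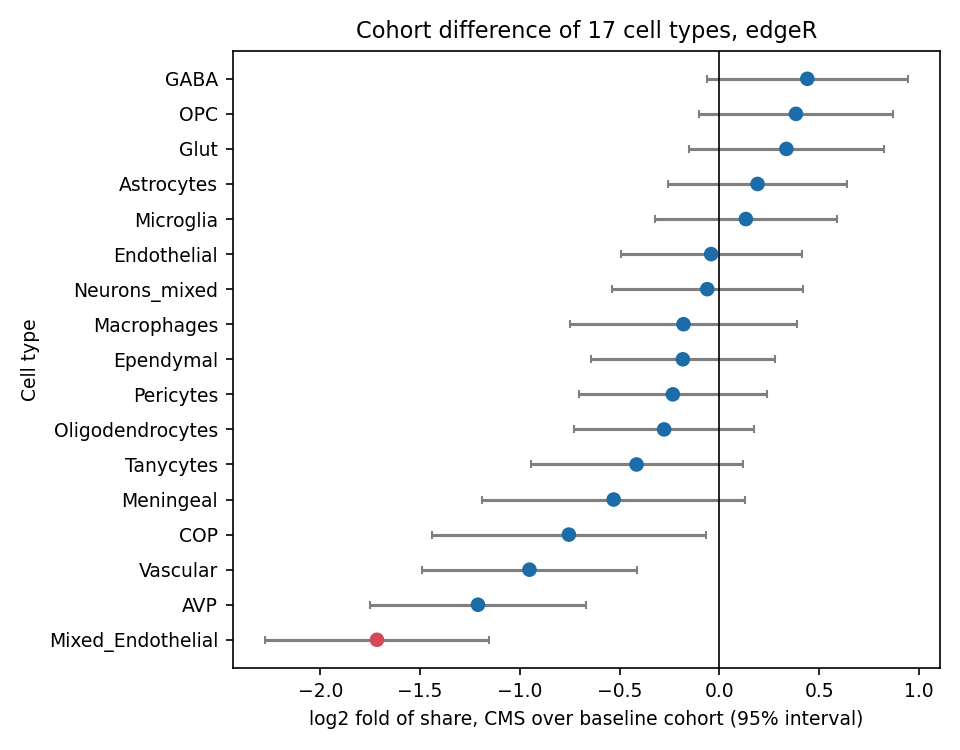
Fitted log2 fold of the share of cells, CMS over baseline cohort (horizontal axis, bars are 95% intervals from edgeR), for the 17 cell types (vertical axis). Mixed_Endothelial, in red, has the lowest value at -1.72, followed by AVP at -1.21 and Vascular cells at -0.95.

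Exposure to stress left the share without a detectable difference. Stressed mice had ARS alone in the baseline cohort and CMS with ARS in the CMS cohort. The fitted stress terms, here and for cell properties below, pool these unlike exposures. The stressed share was 0.962 times the control share in female baseline, 0.893 in male baseline, 1.03 in female CMS and 1.15 in male CMS mice. The fitted log2 fold was -0.023 (SE 0.28, edgeR adjusted p = 0.944, with 0% of types called and 0 of 17 at an unadjusted p under 0.05), and its 95% interval allows a fold from 0.671 to 1.44. DESeq2 and limma on log odds called it neither. The ratio to Endothelial was also close to even, with a log2 fold of -0.075 (SE 0.20, edgeR adjusted p = 0.985, 0% of types called). Neither the sex by stress term (log2 0.035, SE 0.59) nor the cohort by stress term (0.23, SE 0.62) passed (edgeR adjusted p = 0.953 and 0.918, 0% of types called in each).

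Between the sexes the direction differed by cohort. The female share was 0.703 times the male one in baseline control (95% interval 0.506 to 0.977) and 0.758 times in baseline ARS mice (0.542 to 1.06). In CMS control mice it was 1.31 times (0.672 to 2.56) and in CMS with ARS mice 1.18 times (0.622 to 2.23). Over all libraries the log2 fold was -0.16 (SE 0.28, edgeR adjusted p = 0.960), where 5.88% of types were called. It ranged from -0.28 without the male CMS control library to -0.00011 without the male baseline control library, and was -0.43 without the highest 10% of doublet scores, and none of the alternatives was called. The difference between the cohorts, tested as a sex by cohort term added after the data were seen, had a log2 value of 0.77 (SE 0.45, edgeR adjusted p = 0.466, 0% of types called). Per Endothelial cell the female value was 1.47-fold and 1.21-fold lower in baseline control and ARS mice, 1.35-fold higher in CMS control mice and 1.20-fold lower in CMS with ARS mice, so the CMS with ARS pair then pointed the other way than by share. The sex by cohort term of that ratio was 0.49 (SE 0.36, edgeR adjusted p = 0.713), and its difference between the sexes over all libraries was -0.21 (SE 0.20, edgeR adjusted p = 0.880, 0% of types called). For the sum of both labels the sexes gave 6.25% of 16 types called, the sum not among them.

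Properties of the cells were compared between the same groups. Median UMIs of Mixed_Endothelial were 5146 ± 797 (SD, n = 4 libraries) in the CMS cohort and 5195 ± 483 at baseline, and limma did not call the difference (log2 -0.022, SE 0.10, limma adjusted p = 0.890), while it called 18.8% of 16 types. Genes, mitochondrial share and S score were not called in Mixed_Endothelial either (limma adjusted p = 0.542, 0.310 and 0.938), in comparisons where 25%, 18.8% and 6.25% of types were called. The mean doublet score was 2.64 ± 0.21 and 2.56 ± 0.084 (limma adjusted p = 0.461, 0% of types called). Its median was 2.58 to 2.81 in CMS libraries and 2.28 to 2.49 in baseline libraries, without overlap; limma on these medians gave an adjusted p of 0.0522. The gap in mean score between Mixed_Endothelial and Endothelial was 1.56 ± 0.20 in the CMS and 1.40 ± 0.17 in the baseline cohort (exact permutation test, 4 against 4, p = 0.286, adjusted p = 0.429 over 2 measures). With medians that gap differed by 0.33 (exact permutation p = 0.0286, the smallest possible), so the call depends on the summary used. The gap in log2 UMIs was 1.32 ± 0.22 and 1.20 ± 0.14 (exact p = 0.429).

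Stressed libraries had lower medians of UMIs in Mixed_Endothelial cells in 3 of the 4 pairs, 4779.9 ± 570 against 5561 ± 374 (log2 -0.22, SE 0.10), which did not pass (limma adjusted p = 0.700, 0% of types called). Mitochondrial share was 2.90% ± 0.046 in stressed and 2.75% ± 0.086 in control libraries, higher in 4 of the 4 pairs (0.154 percentage points, SE 0.053, limma adjusted p = 0.345, 0% of types called). The S and G2/M scores did not pass either in this comparison (limma adjusted p = 0.799 and 0.914).

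The G2/M score of Mixed_Endothelial cells was higher in female than in male libraries. Female library means were -0.00059 (baseline control), 0.0022 (baseline ARS), 0.00037 (CMS control) and 0.0018 (CMS with ARS). Male library means were -0.0080, -0.0090, -0.023 and -0.0071 in the same order, all below the female ones. The difference was 0.013 (SE 0.0034, limma adjusted p = 0.0386), in a comparison where 25% of types were called. It missed the threshold with the matched pair as a block (limma adjusted p = 0.0516) and with library medians in place of means (0.012, limma adjusted p = 0.275). It was also lost without any of 6 libraries, which were all but the male CMS control and male CMS with ARS libraries (limma adjusted p from 0.0675 to 0.141). The doublet score was 2.70 ± 0.12 in female and 2.50 ± 0.10 in male libraries, which did not pass (limma adjusted p = 0.245, 0% of types called). Median genes per cell were 2315 ± 154 in female and 2466 ± 239 in male libraries and were not called (limma adjusted p = 0.488), where 6.25% of types were.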

How the data were processed

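Per the submitters' processing notes, reads were processed with Cell Ranger 3.0.2 and 3.1.0 on mm10 and cells with Seurat 3.1.3. The deposited table holds whole-number counts of UMIs and genes per cell, a mitochondrial fraction (multiplied here by 100) and doublet, S and G2/M scores whose tools the sources used here do not name. They state no filters on cells, and no doublets were removed here. The deposited cells held 499 to 13323 UMIs and 351 to 3499 genes, with a mitochondrial share of at most 29.99%. Whether cells beyond such values were removed before deposit is not stated. The part of such limits in the comparisons of depth, genes and scores was not tested. Cell types are the deposited labels. Each cell was joined to its library by the experiment, sex and condition in its name, the experiment for acute stress being the cohort titled baseline, and 0 cells were left unmapped.

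Numbers of cells of each type in each library went into the edgeR 4.0.16 quasi-likelihood test (R 4.3.3; sex, cohort and exposure as terms; types with at least 80 cells), and library summaries of cells with limma 3.58.1 in the 16 types with at least 10 cells in every library. For the sex, cohort and exposure terms of shares, the edgeR prior of 71.9 degrees of freedom means that errors rest mostly on spread pooled over types. For the sex by stress and cohort by stress terms the prior was infinite, so errors rest wholly on pooled spread. For the sex by cohort term of shares it was 11.8. Summaries are medians for UMIs, genes and mitochondrial share and means for scores. Benjamini-Hochberg adjustment ran over types, with a threshold of 0.05. Types were compared within libraries by exact sign-flip tests over the 8 differences. Intervals on ratios of 2 libraries use the log method and cover counting error only. DESeq2 1.42.0 served as an alternative. The edgeR and limma tests were also run on simulated data, which for edgeR took shares and library sizes from the real counts. The exact tests were tried on short made-up lists of values. The label, lists and comparisons were chosen with earlier results of these data known. Types named are Mixed_Endothelial, Endothelial, Pericytes and Vascular and any type with as high a mean doublet score; others were named after their values were seen. Comparisons with single Endothelial clusters, the sex by cohort term, sums of medians and the library properties set beside the cohort difference were added after the data were seen.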

Additional observations from a re-analysis of the deposited data

Results flagged for a closer look

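Among the 4 baseline libraries, the male ARS library stood apart in the mean doublet score of its Mixed_Endothelial cells, at 2.44 against 2.60 to 2.61 in the other 3. Of 34 sets of 4 or 8 library values looked at this way, 1 held such a value, where chance gives about 1 in 20.

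The female against male share of Mixed_Endothelial cells pointed down in both baseline pairs and up in both CMS pairs. The sex by cohort term was 0.77 on the log2 scale (edgeR adjusted p = 0.466). Per Endothelial cell, the female value was higher only in the CMS control pair (1.35 times the male one) and lower in the CMS with ARS pair (0.836 times).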

How the results depend on the processing

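Over 56 results and 678 alternatives, 611 kept direction and side of the threshold. The lower share of Mixed_Endothelial in the CMS cohort kept both in all 17 alternatives (log2 -1.84 to -1.55, adjusted p up to 0.00149), and the lower ratio to Endothelial in 15 of 16, the exception being Vascular cells as the denominator (-0.77). Each cause below was not tested, and values that turned sign were not called before or after. The smallest CMS libraries held 14 and 15 Mixed_Endothelial cells, which limits the stress and sex comparisons.

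The labels number no replicates. With libraries matched on the other 2 factors as a replicate block, the share had a log2 value of -1.72 for CMS against baseline (edgeR adjusted p = 8.17e-06) and -0.023 for stressed against control. Among the results refitted this way, the 1 call lost was the G2/M score between the sexes (0.013, limma adjusted p = 0.0516). The ratio to Endothelial and the sum of both labels were not refitted with this block. For the ratio between cohorts, the exact sign-flip test over 4 pairs gave p = 0.125.

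For stressed against control, values turned with limma on log odds (share 0.0051), without the highest 10% of doublet scores (share 0.124, ratio to Endothelial 0.089) and with Endothelial_1 as the denominator (0.128). The sex by stress share turned with limma (-0.023) and without the highest 10% of scores (-0.438). The female against male ratio turned with Endothelial_2 (0.032). With TMM factors the sum of both labels turned to -0.0076 between the sexes and 0.022 between cohorts.

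With means for medians and medians for means, Mixed_Endothelial against Endothelial turned to -0.201 percentage points in mitochondrial share and 0.00076 in G2/M score. Against Pericytes the mitochondrial difference fell to 0.031 and against Vascular the S score difference was 0.015, both no longer called. The cohort gap in doublet score to Endothelial became 0.327 and was called. Between cohorts, Mixed_Endothelial turned to 0.012 (log2 UMIs), -0.328 (mitochondrial points), -0.00044 (S) and 0.0018 (G2/M), and between sexes to -0.155 (mitochondrial points). Without cells under 1000 UMIs the S difference from Endothelial was -0.0011. Against single Endothelial clusters, added after the data were seen, mitochondrial differences were -0.156 (Endothelial_1) and 0.464 (Endothelial_3, called), S was -0.0036 (Endothelial_2) and G2/M was -0.0069 (Endothelial_2, called) and 0.0060 (Endothelial_3).

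Leaving out each library in turn, stressed against control ranged from -0.132 to 0.133 (share), -0.189 to 0.052 (ratio to Endothelial) and -0.077 to 0.135 (sum of both labels). The sex by stress share ranged from -0.464 to 0.359, the cohort by stress share from -0.067 to 0.599, and the sum of both labels between sexes from -0.061 to 0.148. Within Mixed_Endothelial, stress gave -0.130 to 0.00085 (doublet score) and -0.0094 to 0.0034 (S), and cohort -0.069 to 0.064 (log2 UMIs), -0.0057 to 0.0079 (S) and -0.0052 to 0.00049 (G2/M). Against Endothelial the ranges were -0.0022 to 0.0021 (S) and -0.0019 to 0.00099 (G2/M), against Pericytes -0.00067 to 0.0029 (G2/M) and against Vascular 0.0091 to 0.015 (G2/M). At matched depth they were -0.0077 to -0.0031 (S, called without the female CMS control library) and -0.0020 to 0.150 (mitochondrial points).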
